A study of Homo sapiens with 18 samples.

Results

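The genes described here are 33 genes of the actin cytoskeleton, many of them targets of serum response factor (SRF), together with SRF itself and its coactivators MKL1 and MKL2. They were taken by symbol from the count tables of 2 cell lines, which list 22219 genes between them. All 33 are listed in the H1299 table and 32 in the A549 table, with CNN1 analysed in H1299 only. H1299 and A549 are human non-small cell lung cancer lines, H1299 derived from a lymph node metastasis and lacking p53, A549 an adenocarcinoma line with intact p53. Cells of each line had been transfected for 48 h with siRNA at 30 nM and had been without serum during the final 18 h, the controls included. The siRNA was a non-targeting control (siControl) or a SMARTpool, a mix of siRNAs against 1 transcript. The siYAP pool targets YAP1, the gene of YAP, and the siTAZ pool WWTR1, the gene of TAZ. Each of the 6 groups had 3 libraries of poly(A) RNA, 18 in all. H1299 was kept in RPMI-1640 and A549 in DMEM, so that line, medium and table cannot be told apart. The labels do not say whether the replicates were separate cultures, so the p-values may rest on technical spread alone.

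Actin cycles between monomers and filaments. MKL1 and MKL2 (also named MRTFA and MRTFB) bind actin monomers, are released when monomers are used up in filaments, and then join SRF on a DNA element called the CArG box, in genes for actins and for proteins that bind, bundle, contract and move along filaments. YAP and TAZ are paralogous coactivators that bind DNA through TEAD factors. They are known to respond to cell shape and actin tension, and several genes, ANKRD1 among them, are known targets of YAP and TAZ. Levels are in CPM, reads of a gene for each M reads assigned to genes, with library sizes adjusted by edgeR's trimmed mean of M values (TMM). Library values are listed in the order of replicates 1, 2 and 3. Changes are log2 fold changes ± standard error. A gene was called at an adjusted p below 0.05 in edgeR (quasi-likelihood F test), adjusted by the Benjamini-Hochberg method across every gene tested in the line. Only called genes are said to have risen or fallen.

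RefSeq promoter windows (GRCh38.p14), 250 bases before to 50 after an annotated start, were at hand for 29 of the 33 genes (51 windows). The CArG box on either strand was found in the windows of 7 of these 29 genes (24.1%), against 1.6% of 27305 genes. The genes were SRF, ACTG1, FLNA, MYLK, TPM4, CNN2 and FHL2. The matches in these genes are shown, since they hold the letters of the SRF element in members that the results below describe, with the box in capitals and 10 bases beside it, except after the second box of SRF. All stretches read 5′ to 3′ on the gene's own strand, and SRF has a pair of boxes before its start.
SRF (chr6:43171229-43171268, plus strand): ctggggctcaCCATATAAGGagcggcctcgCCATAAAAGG
ACTG1 (chr17:81512874-81512903, minus strand): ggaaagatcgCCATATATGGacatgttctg
FLNA (chrX:154374709-154374738, minus strand): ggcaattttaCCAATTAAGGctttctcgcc
TPM4 (chr19:16067355-16067384, plus strand): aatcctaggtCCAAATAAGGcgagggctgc
MYLK (chr3:123620623-123620652, minus strand): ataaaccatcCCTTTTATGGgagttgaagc
CNN2 (chr19:1026509-1026538, plus strand): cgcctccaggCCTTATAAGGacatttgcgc
FHL2 (chr2:105399091-105399120, minus strand): gcgtgcatctCCTTATATGGtcaaatgaca
FHL2 (chr2:105438595-105438624, minus strand): aatctggagaCCTTAAAAGGcacgtgggag

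By the gene bounds of GENCODE 29, the printed stretches of ACTG1, TPM4 and MYLK and the first of FHL2 lie inside the gene, and the others lie before it. Those inside stand before an internal annotated start, not the outermost start of the gene. MYLK spans 123610049 to 123884331 on the minus strand, so its stretch lies close to the end of the gene and far from the outermost start. The sequence GGAATG, the core of the TEAD element, was searched on both strands and was found in windows of 14 of the 29 genes (48.3%), against 16.7% of all genes. No test was made on either share. Many of the genes were picked as SRF targets, so the CArG share is not independent of their choice. A gene counts if any of its windows matched, and the 29 genes have 51 windows, against 35116 windows for 27305 genes. The shares of genes are thus not on an equal footing. Over all windows, 1.29% held the CArG box and 14.0% GGAATG, and the shares of the 51 member windows were not computed. ANKRD1, the member with the largest fall in A549, held GGAATG at 2 places, printed with the 6 bases in capitals.
ANKRD1 (chr10:90921292-90921317, minus strand): caccaccaaaGGAATGgccctctcac
ANKRD1 (chr10:90921200-90921225, minus strand): cactgagtctGGAATGaaaattcacc
A match shows only that these letters are present in the window.

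H1299 libraries held 16.8 to 20.8 M assigned reads and A549 libraries 10.7 to 45.0 M, of which the 33 genes took 0.937 to 1.47%. The targeted transcripts fell in their own groups: YAP1 changed by -2.48 ± 0.15 in H1299 and -1.78 ± 0.06 in A549 under siYAP, and WWTR1 by -2.38 ± 0.28 and -1.63 ± 0.06 under siTAZ (adjusted p = 0.000334 or lower in each). The other transcript of the pair was not level. Against the control of the same number, WWTR1 under siYAP stood at 65.1, 73.5 and 72.9% in H1299 and 90.9, 90.3 and 86.9% in A549. YAP1 under siTAZ stood at 115, 126 and 129% in H1299 and 98.0, 103 and 107% in A549. All 6 epithelial markers were at 1 CPM or more in A549, led by KRT8 (mean 3086 CPM). In H1299 3 of 6 were, KRT18 (mean 229.6 CPM), KRT8 (mean 178 CPM) and KRT7 (mean 2.22 CPM), while KRT19 (0.321 CPM) and EPCAM (0.288 CPM) were near 0 and CDH1 was not among the H1299 genes listed. Leukocyte markers summed to at most 1.28 CPM in any library. Of the smooth muscle markers, DES and ACTG2 were listed in neither line and MYOCD not in H1299. The summed smooth muscle level, led by SMTN, was 89.9 to 121 CPM in H1299 siControl, 132 to 169 in siYAP and 74.9 to 111 in siTAZ, and in A549 34.7 to 46.6 over all groups. Fibroblast markers, led by COL1A1, summed to 5.42 to 5.95 CPM in H1299 siControl, 9.82 to 12.9 in siYAP and 8.98 to 11.5 in siTAZ. In A549 the 6 epithelial markers summed to 5304 to 6637 CPM in siControl, 4964 to 5779 in siYAP and 3891 to 5100 in siTAZ. The part of these shifts in the results below was not tested.

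In A549 the 3 libraries numbered 3 stood apart from the other 6. For 14 of the 32 genes all 3 were above all others, and for 5 all 3 were below. Over all 16008 genes tested the shares were 16.5% and 16.3%. The mean of the libraries numbered 3 over that of the other 6 was 4.64 for MYL9, 2.05 for FLNC, 1.90 for TAGLN, 1.52 for TPM2, 1.51 for TPM1 and 1.49 for MYH9. It was 0.424 for ANLN and 0.436 for DIAPH3. Tropomyosins, myosin chains and filamins were among the 14, and the cytokinesis genes ANLN and DIAPH3 among the 5. In H1299 no replicate number set more than 1 gene apart in either direction. The A549 results rest on a fit with the replicate number as a block, the design that also gives the authors' deposited A549 fold changes, and compare libraries of the same number.

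**Figure D1:**
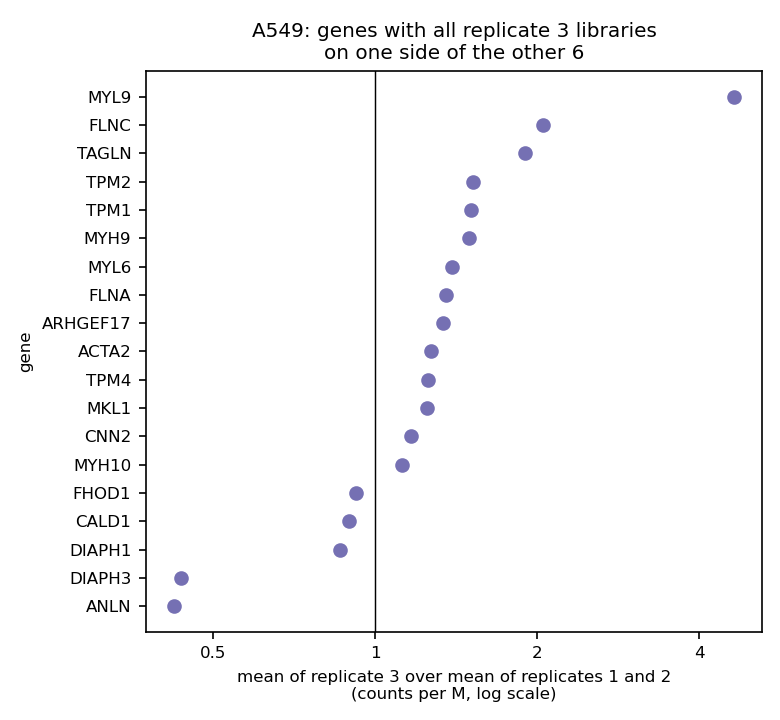
Ratio of the mean CPM of the 3 A549 libraries numbered 3 to that of the other 6 (x axis, log scale) for the 19 genes (y axis) whose libraries numbered 3 were all above or all below the others. MYL9 lies furthest to the right at 4.64 and ANLN furthest to the left at 0.424, with 14 genes above 1 and 5 below.

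In H1299 siYAP changed 6 of 31 genes tested. ACTA2, CNN1 and FHOD1 rose, and TPM4, DIAPH3 and ANLN fell. That is 19.4%, near the 16.6% of all genes called, and 9.68% in each direction against 7.89% higher and 8.75% lower. Under siTAZ 7 of 31 were called (22.6%, against 23.3% of all genes): ACTA2 rose, and ACTG1, CALD1, FLNC, DIAPH3, PFN1 and ANLN fell. These 6 lower genes are 19.4% against 12.4% of all genes, and the 1 higher gene 3.23% against 10.9%. The median change of the 31 genes was -0.08 under siYAP and -0.05 under siTAZ, beside 0.01 over all genes for each. With the replicate number as a block, 14 of 31 genes (45.2%) were called under each siRNA, beside 28.3% of all genes under siYAP and 35.5% under siTAZ. These included all calls without the block, and added ACTG1, CNN2, FLNC, MYH9, MYL9, SRF, TAGLN2 and TPM1 under siYAP and ACTB, CNN3, FHOD1, MKL1, MYL9, TAGLN and TPM4 under siTAZ. The siTAZ count fell to 4 (12.9%) without siControl 1 or without siTAZ 3, where 11.3% and 10.7% of all genes were called.

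In A549 the calls leaned to falls, as did those under siTAZ in H1299 (6 lower and 1 higher). The A549 fit used the block and the H1299 fit did not, so the counts of the lines are not directly comparable. The members were also chosen with earlier results of these data known. Under siYAP 8 of 32 genes were called (25% against 5.68% of all genes): ACTA2 rose, and TPM1, TPM4, MYLK, FLNA, ANKRD1, ANLN and ARHGEF17 fell. The 7 lower genes are 21.9% against 3.17% of all genes, and the 1 higher gene 3.12% against 2.5%. Under siTAZ 14 of 32 were called (43.8% against 13.3%): the same 7 genes fell, as did ACTB, ACTG1, TAGLN2, MYL12A, MYH9 and PFN1, and ACTA2 rose. These 13 lower genes are 40.6% against 6.12% of all genes, and 1 higher gene is 3.12% against 7.21%. Both contrasts use the same 3 controls. The median change of the 32 genes was -0.08 under siYAP and -0.11 under siTAZ, beside 0.00 over all genes. Each of these falls was below 0.6 on the log2 scale except that of ANKRD1 under siTAZ.

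All A549 calls depend on the block. Without it no member was called, and over all 16008 genes 1 was called under siYAP and 1 under siTAZ in edgeR, with 410 and 701 genes at an unadjusted p below 0.05. DESeq2 with the block called 4 members under siYAP (12.5% against 1.79% of all genes), losing ACTA2, ANKRD1, ARHGEF17 and TPM1. It called 11 under siTAZ (34.4% against 5.6%), losing ACTA2, ARHGEF17 and MYL12A. Without the 3 libraries numbered 3, siYAP called 8 members (25% against 4.56% of all genes), losing ANKRD1 and TPM1 and adding CFL1 and ACTG1. The siTAZ count was then 13 (40.6% against 9.82%), losing MYL12A and TPM4 and adding CFL1. Leaving out siControl 1 brought the siYAP count to 5, siControl 2 to 3, siYAP 1 to 4 and siYAP 2 to 3, with 1.02 to 4.06% of all genes called. The siTAZ count fell to 9 without siControl 2 and 7 without siTAZ 2, with 8.91% and 6.55% of all genes called.

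**Figure D2:**
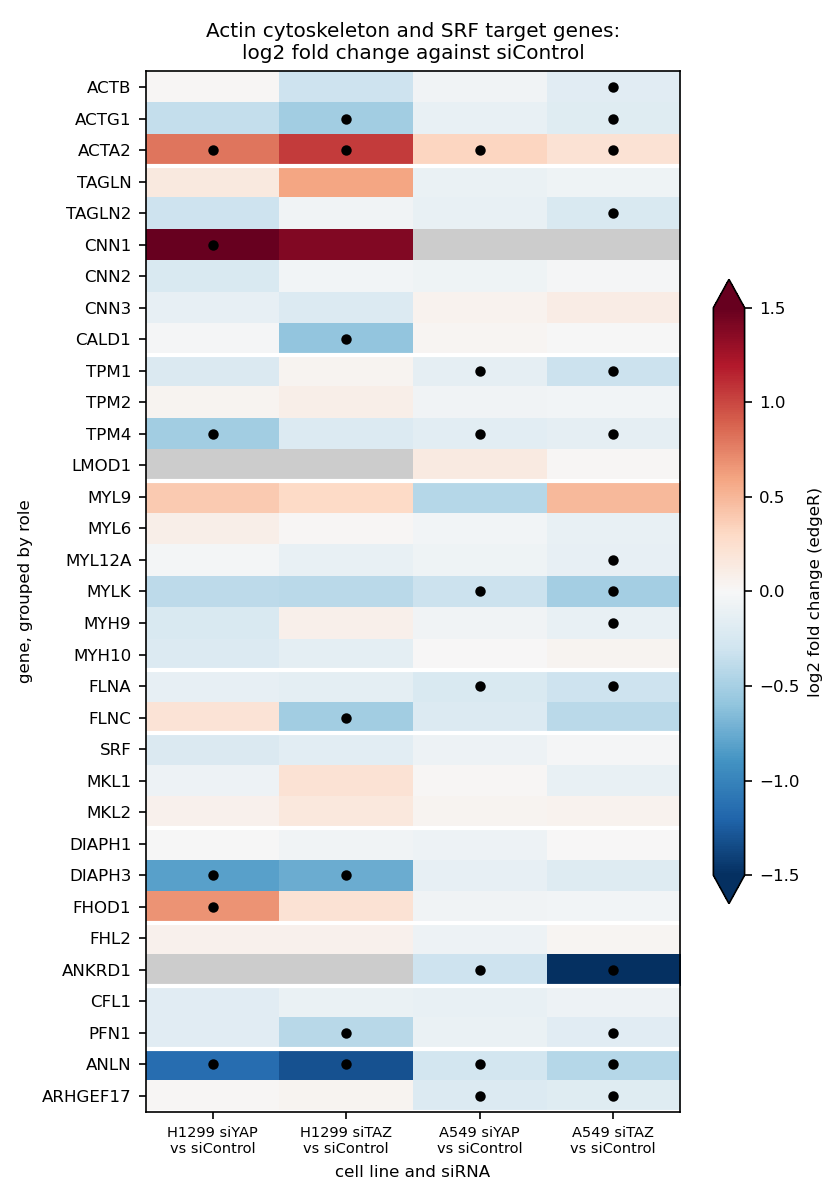
Log2 fold change against siControl (colour, limited to 1.5 in either direction) of the 33 genes (rows, grouped by role) under siYAP and siTAZ in H1299 and A549 (columns), with a dot for an adjusted p below 0.05 and grey where the gene was not tested. The A549 siTAZ column holds 14 dots, 13 of them on a fall, and the H1299 columns hold 6 and 7.

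SRF (ENSG00000112658.7, chromosome 6, 43171299 to 43181507 on the plus strand), the DNA-binding factor, and its coactivators were not called in any knockdown. SRF stood at 144, 133 and 125 CPM in siControl, 111, 121 and 114 CPM in siYAP and 124, 129.8 and 106 CPM in siTAZ in H1299. All 3 siYAP libraries lay below the controls there, a log2 difference of -0.22 ± 0.09, adjusted p = 0.118. With the block this difference was called (-0.21, adjusted p = 0.039), and siTAZ gave -0.16 ± 0.09, adjusted p = 0.219. In A549 SRF stood at 34.9, 32.5 and 34.3 CPM in siControl, 30.3, 32.4 and 32.6 CPM in siYAP and 33, 34.0 and 32.7 CPM in siTAZ, with changes of -0.07 ± 0.06 and -0.02 ± 0.05 and overlapping groups. MKL1 stood at 30.4, 32.8 and 26.1 CPM in siControl, 27.4, 31.0 and 26.3 CPM in siYAP and 36.9, 36.8 and 29.8 CPM in siTAZ in H1299, where siTAZ gave 0.21 ± 0.12, adjusted p = 0.198, called only with the block (0.21, adjusted p = 0.0489). MKL1 in A549 stood at 56.8, 51.8 and 64.3 CPM in siControl, 54.8, 51.8 and 69.5 CPM in siYAP and 49.8, 48.8 and 62.0 CPM in siTAZ. MKL2 stood at 23.5, 25.8 and 22.2 CPM in siControl, 22.9, 28.3 and 23.8 CPM in siYAP and 26.8, 29.5 and 23.7 CPM in siTAZ in H1299 and at 49.1, 44.9 and 50.2 CPM in siControl, 48.2, 49.2 and 48.7 CPM in siYAP and 45.4, 49.9 and 52.2 CPM in siTAZ in A549. The groups overlapped for both coactivators in each line, and the MKL2 changes lay between 0.04 and 0.16.

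The actins differed among themselves. ACTB and ACTG1 encode the beta and gamma cytoplasmic actins, and ACTA2 the smooth muscle alpha actin. ACTG1 in H1299 stood at 3848, 4015 and 3253 CPM in siControl, 2640.1, 3256 and 2763 CPM in siYAP and 2418, 3096 and 2213 CPM in siTAZ. All siTAZ libraries were below all controls, a log2 change of -0.52 ± 0.15, adjusted p = 0.0194, while 1 siYAP library reached the lowest control (-0.36 ± 0.14, adjusted p = 0.105). The siTAZ call was lost without any 1 of siControl 1, siTAZ 1 and siTAZ 3 (adjusted p up to 0.114, log2 change -0.67 to -0.41). In A549 ACTG1 stood at 3072, 3365 and 3531 CPM in siControl, 2661, 3078 and 3549 CPM in siYAP and 2715, 2843 and 3245 CPM in siTAZ, and siTAZ at 88.4, 84.5 and 91.9% of the control of the same number. That fall was small (-0.18 ± 0.04, adjusted p = 0.00268) and was lost without siTAZ 2 (adjusted p up to 0.0775, log2 change -0.22 to -0.16).

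ACTB in A549 stood at 2089, 2146 and 2150.4 CPM in siControl, 1982, 1954 and 2230.2 CPM in siYAP and 1856, 1768 and 2068 CPM in siTAZ, and fell under siTAZ (-0.17 ± 0.04, adjusted p = 0.00444), with all siTAZ libraries below all controls. The call was lost without siControl 2 or siTAZ 2 (adjusted p up to 0.134, log2 change -0.22 to -0.12). In H1299 ACTB stood at 2893, 2813 and 2614 CPM in siControl, 2718, 2851 and 2828 CPM in siYAP and 2259, 2431 and 2033 CPM in siTAZ, and its siTAZ libraries were also all lower (-0.31 ± 0.11, adjusted p = 0.0536). Both actins share sequence with many pseudogenes (10 annotated under the name of ACTB and 20 under that of ACTG1), so that their read counts are uncertain.

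ACTA2 (ENSG00000107796.13, chromosome 10, 88935074 to 88991339 on the minus strand) was the 1 member that rose under both siRNAs in both lines. In H1299 it stood at 1.61, 1.43 and 1.52 CPM in siControl, 2.76, 2.4 and 2.80 CPM in siYAP and 3.37, 3.66 and 2.39 CPM in siTAZ, all 6 knockdown libraries above all controls. The rise was 0.81 ± 0.22, adjusted p = 0.0255 under siYAP and 1.05 ± 0.22, adjusted p = 0.00494 under siTAZ. The siYAP call was lost without any 1 of siControl 1, siControl 2, siControl 3, siYAP 1 and siYAP 3 (adjusted p up to 0.0912, log2 change 0.76 to 0.87). In A549 it stood at 13.8, 13.2 and 18.2 CPM in siControl, 16, 17.6 and 21.4 CPM in siYAP and 15.7, 16.5 and 19.4 CPM in siTAZ, with overlapping groups but every knockdown library above the control of its number. Against that control siYAP stood at 116, 133 and 118% and siTAZ at 114, 126 and 107%. The changes were 0.32 ± 0.07, adjusted p = 0.00333 and 0.22 ± 0.07, adjusted p = 0.0315. The siYAP call was lost without siControl 2 or siYAP 2 (adjusted p up to 0.202, log2 change 0.23 to 0.37), and the siTAZ call without any 1 of siControl 1, siControl 2, siTAZ 1 and siTAZ 2 (adjusted p up to 0.377, log2 change 0.14 to 0.27). ACTA2 shares exon positions with FAS on the other strand, and FAS is more abundant (30.5 CPM in H1299 controls and 52.5 in A549). The use of strand in counting is not given in the sources used here, so that reads of the pair cannot be told apart. FAS itself was not called in any of the 4 contrasts. The summed smooth muscle markers were at 132 to 169 CPM in the H1299 siYAP libraries against 89.9 to 121 in siControl, and at 74.9 to 111 in siTAZ. In H1299 this sum is nearly all SMTN (mean 119.7 CPM), with MYH11 (0.450 CPM) and SYNPO2 (0.243 CPM) near 0 and the other markers not listed. SMTN is also in the list of other SRF and MRTF targets described below. The summed fibroblast markers were at 9.82 to 12.9 CPM in siYAP and 8.98 to 11.5 in siTAZ, against 5.42 to 5.95 in siControl. The part of either marker list in the ACTA2 result was not tested.

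Calponins, transgelins and caldesmon bind along actin filaments and modulate contraction. CNN1, the smooth muscle calponin, was nearly silent in H1299, at raw counts of 0, 5 and 4 in siControl, 19, 14 and 28 in siYAP and 7, 9 and 11 in siTAZ. Both knockdown groups lay above the controls. The rise under siYAP was called (2.51 ± 0.53, adjusted p = 0.00702) and that under siTAZ was not (1.39 ± 0.61, adjusted p = 0.112). With 9 control reads in all, the size of this fold depends on the prior count of the fit, and DESeq2 gave no adjusted p for the siYAP contrast. CALD1, caldesmon, stood at 27.8, 17.9 and 19.5 CPM in siControl, 24.6, 18.1 and 22.0 CPM in siYAP and 18.9, 11.2 and 13.4 CPM in siTAZ in H1299, with siTAZ lower (log2 change -0.59 ± 0.20, adjusted p = 0.0455), 1 siTAZ library overlapping the controls. This call was lost without any 1 of siControl 1, siControl 3, siTAZ 2 and siTAZ 3 (adjusted p up to 0.241, log2 change -0.82 to -0.36). It was also lost when libraries were scaled by total reads (-0.52, adjusted p = 0.0575). In A549 CALD1 stood at 249, 234 and 219.7 CPM in siControl, 264, 241 and 214 CPM in siYAP and 246, 229 and 222 CPM in siTAZ and its groups overlapped (0.03 ± 0.04 and -0.01 ± 0.04).

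TAGLN2, transgelin 2, fell under siTAZ in A549, from 359, 381 and 349.9 CPM in siControl to 284, 316 and 330.3 CPM, with 323, 351 and 333 CPM in siYAP. All siTAZ libraries lay below all controls (-0.23 ± 0.04, adjusted p = 0.000133), a call that held in each leave-one-out fit. In H1299 TAGLN2 stood at 133, 157 and 118 CPM in siControl, 104, 128 and 96.7 CPM in siYAP and 122, 161 and 112 CPM in siTAZ, with overlapping groups, and was called under siYAP only with the block (-0.32, adjusted p = 0.00266). TAGLN, CNN2 and CNN3 were called in neither line in the fits given here. With the block in H1299, CNN2 was called under siYAP (-0.23, adjusted p = 0.0135) and CNN3 (-0.21, adjusted p = 0.0294) and TAGLN (0.58, adjusted p = 0.0296) under siTAZ. TAGLN was also called there with scaling by total reads (0.66, adjusted p = 0.0395). In A549 without siControl 3, CNN3 was called under siTAZ. TAGLN overlaps the more abundant PCSK7 on the other strand (27.2 CPM in H1299 controls). TAGLN, the smooth muscle transgelin, stood at 2.50 to 4.82 CPM over the H1299 libraries and 2.55 to 7.99 CPM over the A549 libraries. CNN2 stood at 171 to 236 CPM in H1299 and 35.3 to 44.5 CPM in A549, and CNN3 at 145 to 190.4 CPM in H1299 and 73.0 to 96.1 CPM in A549.

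Tropomyosins lie along the groove of the actin filament and set which partners can bind it. TPM1 and TPM4 fell under both siRNAs in A549. TPM1 stood at 139, 126 and 204 CPM in siControl, 122, 119 and 184 CPM in siYAP and 111, 105 and 157 CPM in siTAZ. The libraries numbered 3 were higher throughout, and within a number siYAP stood at 87.5, 94.4 and 90.4% of the control and siTAZ at 79.6, 83.2 and 77.0%. The siTAZ fall was -0.32 ± 0.04, adjusted p = 2.48e-07 and was called in each leave-one-out fit. The siYAP fall was -0.13 ± 0.04, adjusted p = 0.0394 and was lost without any 1 of siControl 1, siControl 2, siControl 3, siYAP 1, siYAP 2 and siYAP 3 (adjusted p up to 0.166, log2 change -0.17 to -0.12). In H1299 TPM1 stood at 61.6, 70.7 and 60.9 CPM in siControl, 56.8, 54.9 and 54.2 CPM in siYAP and 68.8, 64.3 and 66.1 CPM in siTAZ. Its siYAP libraries were all below the controls (-0.22 ± 0.08, adjusted p = 0.0864; with the block -0.22, adjusted p = 0.0426), and its siTAZ libraries overlapped them (0.05 ± 0.08, adjusted p = 0.727).

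TPM4 was the tropomyosin called in both lines. In H1299 it stood at 399.8, 428 and 366 CPM in siControl, 252, 309 and 273 CPM in siYAP and 315, 396 and 326 CPM in siTAZ. Every siYAP library was below every control, a log2 change of -0.52 ± 0.11, adjusted p = 0.00752, while siTAZ overlapped the controls (-0.20 ± 0.11, adjusted p = 0.196; with the block -0.21, adjusted p = 0.0321). The A549 level was 248, 277 and 329.5 CPM in siControl, 208, 258 and 301 CPM in siYAP and 226, 259 and 293 CPM in siTAZ, and fell, by log2 changes of -0.15 ± 0.04, adjusted p = 0.0162 and -0.13 ± 0.04, adjusted p = 0.0213. The siYAP call was lost without any 1 of siControl 1, siYAP 1 and siYAP 2 (adjusted p up to 0.149, log2 change -0.19 to -0.12), and the siTAZ call without any 1 of siControl 1, siTAZ 2 and siTAZ 3 (adjusted p up to 0.168, log2 change -0.16 to -0.11). TPM2 was not called in either line. It stood at 279 to 314 CPM over the H1299 libraries and 194 to 334 CPM in A549, and its 4 changes against siControl were within 0.1 of 0. LMOD1, leiomodin 1, nucleates filaments in smooth muscle. In A549 it stood at 2.12, 1.42 and 1.67 CPM in siControl, 1.79, 1.71 and 1.83 CPM in siYAP and 2.16, 1.40 and 1.67 CPM in siTAZ with overlapping groups. In H1299 it held raw counts of 1, 1 and 3 in siControl, 9, 2 and 9 in siYAP and 8, 8 and 13 in siTAZ, too few to pass the filter on low counts. Fitted without that filter, its siTAZ difference in H1299 was 2.29 ± 0.65, adjusted p = 0.0227, and its siYAP difference 1.72 ± 0.70, adjusted p = 0.117.

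Of the nonmuscle myosin genes and their kinase, none was called in H1299, and in A549 MYLK fell under both siRNAs and MYL12A and MYH9 under siTAZ. MYLK encodes the myosin light chain kinase, which starts contraction by phosphorylating the regulatory light chain. In A549 it stood at 48.4, 54.9 and 62.7 CPM in siControl, 36.5, 41.4 and 56.4 CPM in siYAP and 38.0, 33.6 and 46.9 CPM in siTAZ. Each knockdown library was below the control of its number, with siYAP at 75.4, 75.5 and 89.9% and siTAZ at 78.4, 61.3 and 74.8%. The falls were -0.32 ± 0.06, adjusted p = 0.000319 and -0.51 ± 0.06, adjusted p = 3.32e-08. The siTAZ call held in each leave-one-out fit, and the siYAP call was lost without siControl 2 (adjusted p up to 0.0829, log2 change -0.39 to -0.21). In H1299 MYLK was a low transcript, at 5.45, 5.36 and 5.11 CPM in siControl, 4.31, 4.22 and 3.61 CPM in siYAP and 4.84, 3.46 and 3.71 CPM in siTAZ. All knockdown libraries lay below the controls there, with changes of -0.39 ± 0.17, adjusted p = 0.127 and -0.41 ± 0.17, adjusted p = 0.0945 that were not called.

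MYH9, a nonmuscle myosin II heavy chain, stood in A549 at 502, 461 and 686 CPM in siControl, 475, 435 and 687 CPM in siYAP and 451, 414 and 669.5 CPM in siTAZ. Its siTAZ fall was -0.11 ± 0.04, adjusted p = 0.0447 and was lost without any 1 of siControl 1, siControl 2, siTAZ 1, siTAZ 2 and siTAZ 3 (adjusted p up to 0.268, log2 change -0.15 to -0.10). MYL12A, a regulatory light chain, stood in A549 at 141, 148 and 171 CPM in siControl, 136, 144 and 158 CPM in siYAP and 137, 139.7 and 145 CPM in siTAZ, with a siTAZ fall of -0.12 ± 0.04, adjusted p = 0.0483 that was lost without any 1 of siControl 2, siControl 3, siTAZ 2 and siTAZ 3 (adjusted p up to 0.398, log2 change -0.16 to -0.08). Both groups overlapped their controls. In H1299 MYH9 stood at 1232, 1231 and 1167 CPM in siControl, 1082, 1066 and 947 CPM in siYAP and 1414, 1221 and 1200.2 CPM in siTAZ and MYL12A at 348, 381 and 325 CPM in siControl, 328, 332 and 369 CPM in siYAP and 320.3, 337 and 319 CPM in siTAZ. The siYAP libraries of MYH9 were all below its controls (-0.23 ± 0.10, adjusted p = 0.137; with the block -0.23, adjusted p = 0.0318). MYL9, the other regulatory light chain, stood at 16.5 to 29.9 CPM in H1299, with all 6 knockdown libraries above all controls (0.39 ± 0.13, adjusted p = 0.0546 under siYAP and 0.30 ± 0.13, adjusted p = 0.114 under siTAZ). Both differences were called with the block (0.40, adjusted p = 0.0103, and 0.31, adjusted p = 0.0314). In A549 MYL9 held 0.0944 to 2.76 CPM. MYL6, the essential light chain, stood at 260.2 to 325 CPM in H1299 and 235 to 402 CPM in A549, and MYH10 at 93.6 to 120.4 CPM and 97.9 to 117 CPM. Neither was called.

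Filamins crosslink actin filaments into networks. FLNA, the common filamin, fell in A549 under both siRNAs, from 1479, 1332 and 1726 CPM in siControl to 1179, 1092 and 1627 CPM in siYAP and 1166, 996 and 1545 CPM in siTAZ. Within a number siYAP stood at 79.7, 81.9 and 94.3% of the control and siTAZ at 78.8, 74.8 and 89.5%, although the groups as a whole overlapped. The falls were -0.23 ± 0.04, adjusted p = 0.000608 and -0.31 ± 0.04, adjusted p = 2.56e-06, and both held in each leave-one-out fit. In H1299 FLNA stood at 1519.9, 1484 and 1530.4 CPM in siControl, 1387, 1395 and 1368 CPM in siYAP and 1501, 1232 and 1364 CPM in siTAZ (-0.13 ± 0.10 and -0.15 ± 0.10, neither called). FLNC (ENSG00000128591.15, chromosome 7, 128830377 to 128859274 on the plus strand) is the muscle filamin. In H1299 it stood at 505, 448 and 537 CPM in siControl, 604, 522 and 594 CPM in siYAP and 361, 320.2 and 357 CPM in siTAZ. All siTAZ libraries were below all controls, a log2 change of -0.52 ± 0.10, adjusted p = 0.00294 that held in each leave-one-out fit. Of the siYAP libraries 2 lay above all controls (0.21 ± 0.10, adjusted p = 0.167; with the block 0.21, adjusted p = 0.0285). In A549 FLNC was close to absent, at 1.46, 0.817 and 3.04 CPM in siControl, 1.23, 0.975 and 1.89 CPM in siYAP and 1.13, 0.867 and 1.71 CPM in siTAZ.

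Formins nucleate and elongate straight actin filaments. FHOD1 (ENSG00000135723.13, chromosome 16, 67229387 to 67247658 on the minus strand), a formin known for its place on stress fibres, rose under siYAP in H1299. It stood at 97.1, 104 and 86.9 CPM in siControl, 166, 146 and 147 CPM in siYAP and 116, 108 and 109.5 CPM in siTAZ, the siYAP libraries above all others. The rise was 0.67 ± 0.09, adjusted p = 0.00081 and held in each leave-one-out fit. The siTAZ libraries also lay above the controls, by 0.21 ± 0.09, adjusted p = 0.0973, a difference called with the block (0.21, adjusted p = 0.0345) and with scaling by total reads (0.28, adjusted p = 0.0411). In A549 FHOD1 stood at 62.2, 67.1 and 56.9 CPM in siControl, 64.6, 58.9 and 58.9 CPM in siYAP and 61.2, 62.9 and 58.1 CPM in siTAZ, with overlapping groups. SLC9A5, which overlaps FHOD1 on the other strand, stood at 15.2 CPM in H1299 controls and was not called.

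DIAPH3, a formin known for roles in cytokinesis, fell under both siRNAs in H1299. It stood at 60.5, 48.7 and 51.9 CPM in siControl, 29.4, 37.9 and 24.4 CPM in siYAP and 34.1, 32.4 and 29.4 CPM in siTAZ, all 6 knockdown libraries below all controls. The falls were -0.82 ± 0.14, adjusted p = 0.00262 and -0.75 ± 0.14, adjusted p = 0.00263, and both held in each leave-one-out fit. In A549 DIAPH3 stood at 8.89, 11.6 and 3.73 CPM in siControl, 8.78, 9.69 and 4.75 CPM in siYAP and 7.90, 9.86 and 3.89 CPM in siTAZ, with changes of -0.12 ± 0.10 and -0.19 ± 0.10 that were not called. DIAPH1, another diaphanous formin, stood at 339 to 446 CPM in H1299 and 129.5 to 169.9 CPM in A549 and was not called.

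**Figure D3:**
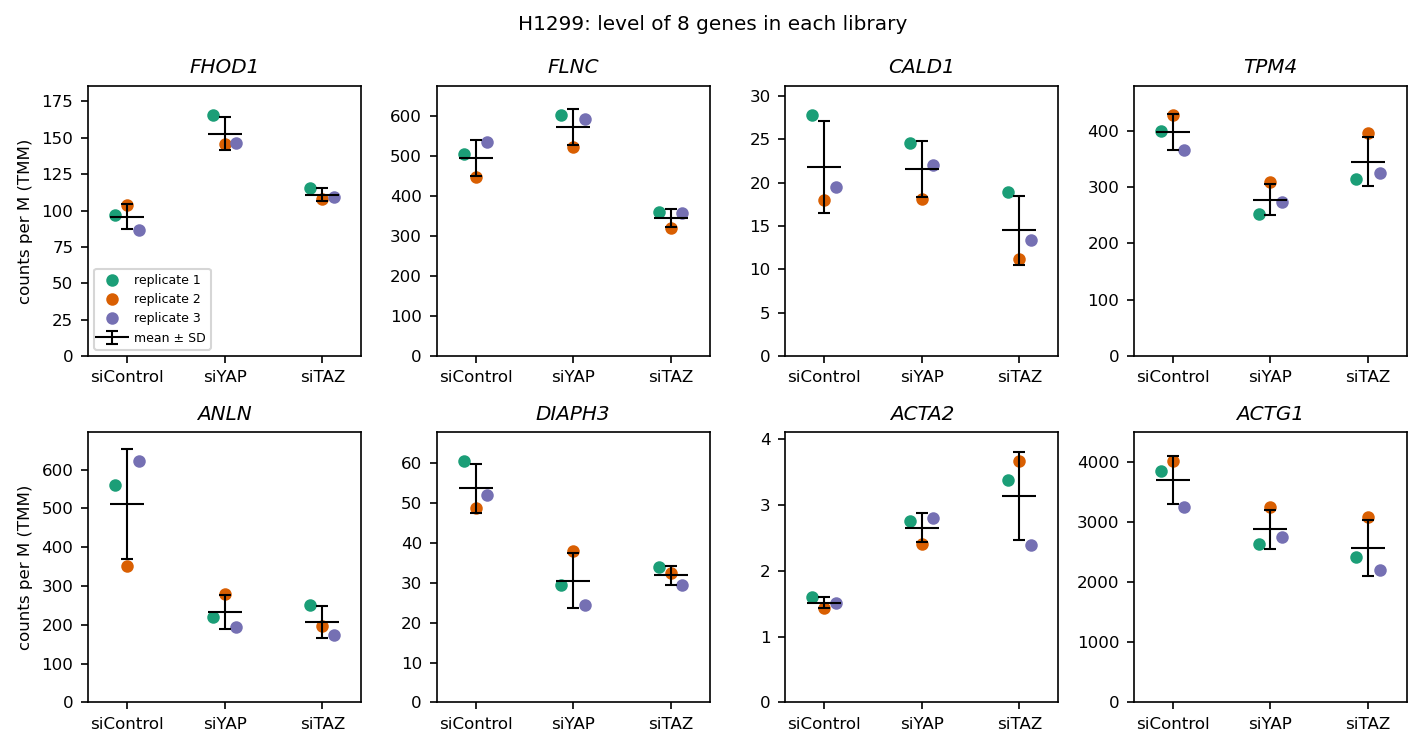
CPM (y axis, from 0) of 8 genes in the 9 H1299 libraries, by siRNA (x axis). Points are libraries, coloured by replicate number, and bars give the mean ± SD of 3. FHOD1 siYAP libraries sit at 166, 146 and 147 CPM, above all others, and ANLN and DIAPH3 are lower in all knockdown libraries than in any control.

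ANKRD1 (ENSG00000148677.6, chromosome 10, 90912096 to 90921276 on the minus strand), an ankyrin repeat protein of the sarcomere and nucleus, showed the largest fall of any member in A549. It stood at 9.29, 8.22 and 24.7 CPM in siControl, 6.51, 6.59 and 20.7 CPM in siYAP and 3.97, 2.15 and 7.78 CPM in siTAZ. Within a number siTAZ stood at 42.8, 26.1 and 31.4% of the control and siYAP at 70.1, 80.1 and 83.7%. The siTAZ libraries were all below all controls, a log2 change of -1.62 ± 0.11, adjusted p = 2.36e-13, which held in each leave-one-out fit. It was -1.56, adjusted p = 8.77e-09 without the libraries numbered 3, and -1.58, adjusted p = 1 without the block. The siYAP fall was -0.31 ± 0.09, adjusted p = 0.0381 and was lost without any 1 of siControl 2, siControl 3, siYAP 1, siYAP 2 and siYAP 3 (adjusted p up to 0.268, log2 change -0.39 to -0.25). In H1299 ANKRD1 held raw counts of 2, 5 and 9 in siControl, 1, 2 and 5 in siYAP and 1, 0 and 3 in siTAZ, too few to pass the filter. Fitted without it, the differences were -1.17 ± 0.74, adjusted p = 0.327 under siYAP and -2.07 ± 0.85, adjusted p = 0.104 under siTAZ. FHL2, a LIM protein that binds SRF, stood at 40.8 to 57.7 CPM in H1299 and 22.6 to 31.2 CPM in A549, and was not called.

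**Figure D4:**
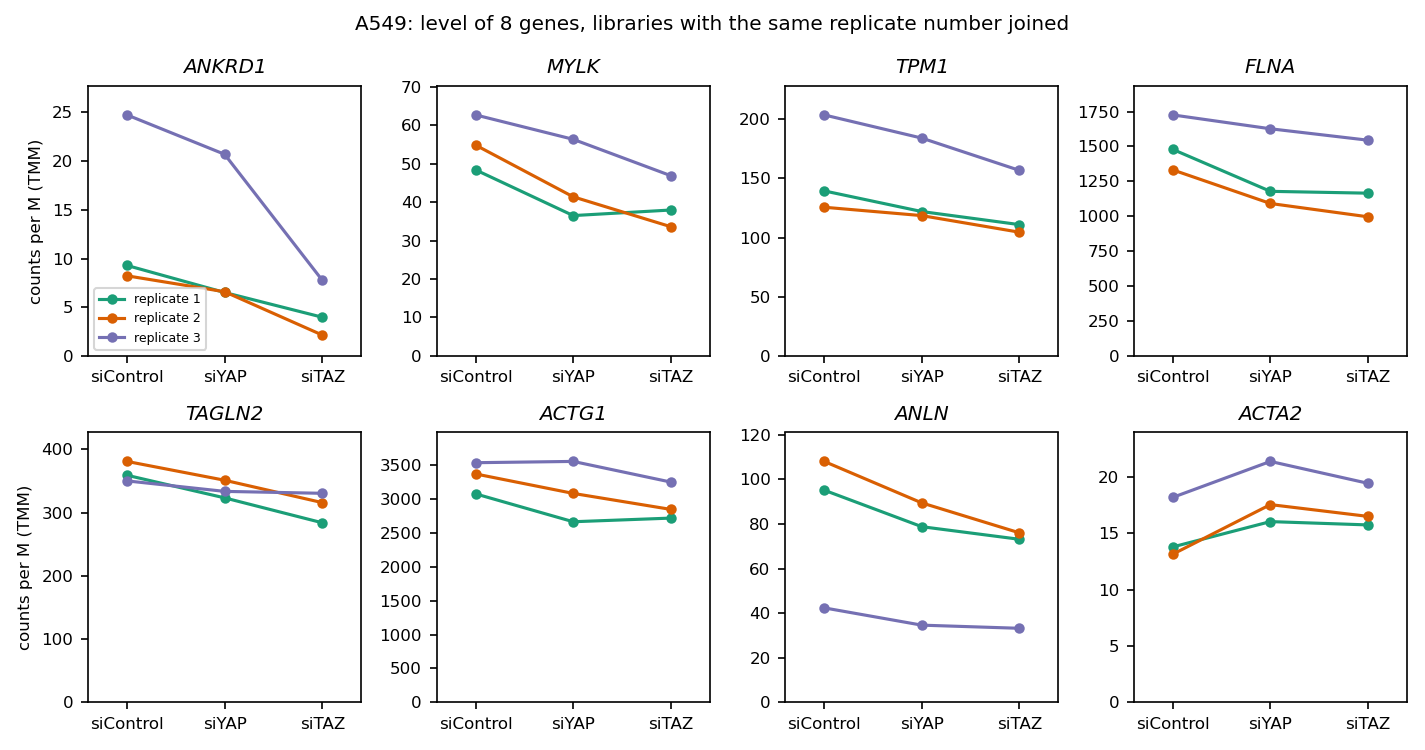
CPM (y axis, from 0) of 8 genes in the 9 A549 libraries, by siRNA (x axis), with lines joining libraries of the same replicate number. ANKRD1 drops to 3.97, 2.15 and 7.78 CPM in siTAZ from 9.29, 8.22 and 24.7 CPM in siControl, and within each siRNA the replicate 3 point is the highest for ANKRD1, MYLK, TPM1, FLNA and ACTA2 and the lowest for ANLN.

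PFN1, profilin, delivers actin monomers to growing filament ends. In H1299 it stood at 547, 568 and 519 CPM in siControl, 451, 517 and 486 CPM in siYAP and 369, 472 and 388 CPM in siTAZ, with all siTAZ libraries below the controls (-0.41 ± 0.10, adjusted p = 0.0129). That call was lost without any 1 of siControl 1, siTAZ 1 and siTAZ 3 (adjusted p up to 0.0776, log2 change -0.52 to -0.34). The A549 libraries held 701, 818 and 733 CPM in siControl, 633, 749.7 and 718 CPM in siYAP and 599.8, 707 and 691 CPM in siTAZ, with siTAZ at 85.5, 86.4 and 94.3% of the control of its number (-0.17 ± 0.04, adjusted p = 0.00171), a call that held in each leave-one-out fit. The siYAP libraries were not called in either line (-0.17 ± 0.10, adjusted p = 0.286 in H1299 and -0.10 ± 0.04, adjusted p = 0.126 in A549). CFL1, cofilin, which severs filaments, stood at 589 to 744 CPM in H1299 and 482 to 603 CPM in A549. It was called in neither line, except in A549 without siControl 3 alone (-0.17, adjusted p = 0.00644 under siYAP and -0.13, adjusted p = 0.0238 under siTAZ) or without all libraries numbered 3 (-0.17, adjusted p = 0.019 under siYAP and -0.14, adjusted p = 0.045 under siTAZ). PFN1, CFL1 and CNN2 have 8 to 11 pseudogenes annotated under their names, so that their counts are uncertain.

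ANLN (ENSG00000011426.10, chromosome 7, 36389806 to 36453791 on the plus strand) encodes anillin, which links actin, myosin and septins at the cleavage furrow. It fell in each of the 4 contrasts. In H1299 it stood at 560.2, 350.4 and 621 CPM in siControl, 220.3, 281 and 195 CPM in siYAP and 252, 196 and 173 CPM in siTAZ, with siControl 2 lower than the other controls but above every knockdown library. The falls were -1.14 ± 0.20, adjusted p = 0.00271 and -1.30 ± 0.20, adjusted p = 0.00106. In A549 it stood at 95.2, 108 and 42.4 CPM in siControl, 78.8, 89.5 and 34.6 CPM in siYAP and 73.2, 76.1 and 33.2 CPM in siTAZ, the libraries numbered 3 low throughout. Within a number siYAP stood at 82.8, 82.8 and 81.7% of the control and siTAZ at 76.9, 70.4 and 78.4%, with falls of -0.28 ± 0.05, adjusted p = 0.000134 and -0.42 ± 0.05, adjusted p = 1.26e-08. All 4 calls held in each leave-one-out fit. KIAA0895, which overlaps ANLN on the other strand, stood at 10.2 CPM in H1299 controls and rose there under siTAZ (0.63, adjusted p = 0.00408).

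The partners of anillin in cytokinesis, 14 genes such as ECT2, CIT and PRC1, were called lower in part, and none higher, in each contrast. Under siYAP 9 of 14 (64.3%) fell in H1299 (median -0.94) and 9 of 14 in A549 (median -0.23), against 8.75% and 3.17% of all genes lower. Under siTAZ 10 of 14 (71.4%) fell in H1299 (median -0.72) and 7 of 14 (50%) in A549 (median -0.15), against 12.4% and 6.12%. The median over all genes was 0.01 or less in each. PRC1, which bundles microtubules of the central spindle, changed by -1.06 ± 0.16, adjusted p = 0.00145 under siYAP in H1299 and by -0.33 ± 0.04, adjusted p = 5.28e-07 under siTAZ in A549. ECT2, an exchange factor that acts at the cleavage furrow, changed by -0.88 ± 0.14, adjusted p = 0.00125 under siTAZ in H1299 and by -0.29 ± 0.04, adjusted p = 1.73e-05 under siYAP in A549.

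ARHGEF17, a guanine nucleotide exchange factor, was called in A549 only. It stood there at 35.4, 31.0 and 41.1 CPM in siControl, 27.4, 26.9 and 38.9 CPM in siYAP and 30.4, 26.4 and 38.7 CPM in siTAZ, each knockdown library below the control of its number. The falls were -0.20 ± 0.06, adjusted p = 0.0237 and -0.18 ± 0.06, adjusted p = 0.0239. The siYAP call was lost without any 1 of siControl 1, siControl 2, siYAP 1 and siYAP 2 (adjusted p up to 0.201, log2 change -0.25 to -0.17), and the siTAZ call without any 1 of siControl 1, siControl 2 and siTAZ 2 (adjusted p up to 0.208, log2 change -0.23 to -0.15). In H1299 it stood at 89.1, 78.1 and 93.4 CPM in siControl, 97.4, 81.2 and 85.2 CPM in siYAP and 97.0, 77.0 and 94.4 CPM in siTAZ with overlapping groups. The difference between the lines was not called (0.23 ± 0.14, adjusted p = 0.398 for siYAP and 0.22 ± 0.14, adjusted p = 0.355 for siTAZ).

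Of 18 genes of Arp2/3, WAVE and filament branching, 1 fell under siYAP and 3 under siTAZ in H1299, and 0 and 1 in A549, with no rise. As shares these are 5.56% and 16.7% in H1299, against 8.75% and 12.4% of all genes lower, and 0% and 5.56% in A549, against 3.17% and 6.12%. ARPC1A, an Arp2/3 subunit, changed by -0.80 ± 0.15, adjusted p = 0.00275 under siTAZ in H1299. Of other filament-binding and turnover genes, 1 of 36 rose and 4 fell under siYAP and 4 rose and 5 fell under siTAZ in H1299. In A549 0 of 37 rose and 5 fell, and 2 rose and 6 fell. The lower genes are 11.1% and 13.9% of the list in H1299, against 8.75% and 12.4% of all genes. In A549 they are 13.5% and 16.2%, against 3.17% and 6.12%. The higher genes are 2.78% and 11.1% in H1299, against 7.89% and 10.9% of all genes, and 0% and 5.41% in A549, against 2.5% and 7.21%. CFL2, the muscle cofilin, fell under siYAP in H1299 (-0.64 ± 0.08, adjusted p = 0.00081) and in A549 (-0.32 ± 0.04, adjusted p = 4.52e-06). ENAH, which protects growing filament ends, rose under siTAZ in H1299 (0.60 ± 0.11, adjusted p = 0.00213).

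Other genes known as SRF and MRTF targets were mixed. Of 18 tested in H1299, 2 rose and 3 fell under each siRNA, and of 19 in A549, 0 rose and 4 fell under siYAP and 3 rose and 7 fell under siTAZ. In H1299 11.1% of the list was higher (all genes 7.89% and 10.9%) and 16.7% lower (all genes 8.75% and 12.4%). In A549 0% and 15.8% were higher (all genes 2.5% and 7.21%) and 21.1% and 36.8% lower (all genes 3.17% and 6.12%). The genes with the smallest adjusted p were also known YAP and TAZ targets. CYR61 changed by -1.38 ± 0.23, adjusted p = 0.00219 under siYAP and by -1.65 ± 0.23, adjusted p = 0.000693 under siTAZ in H1299, and by -0.51 ± 0.08, adjusted p = 2.97e-05 and -1.03 ± 0.08, adjusted p = 5.57e-12 in A549. CTGF changed by -0.75 ± 0.13, adjusted p = 0.00295 and -1.33 ± 0.13, adjusted p = 0.000316 in H1299, and AJUBA by -0.49 ± 0.05, adjusted p = 4.62e-08 and -0.68 ± 0.05, adjusted p = 5.04e-12 in A549.

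The siRNAs were compared with each other within a line. In H1299 2 of 31 members were called (6.45% against 11.7% of all genes), both higher in siYAP than in siTAZ. Of all genes 5.6% were higher and 6.1% lower. FLNC differed by 0.73 ± 0.10, adjusted p = 0.000642 and FHOD1 by 0.46 ± 0.09, adjusted p = 0.00454, with no overlap between the siYAP and siTAZ libraries of either gene. With the block 11 members were called (35.5% against 21.5% of all genes). DESeq2 called 7 (21.2% against 11%), and leaving out siTAZ 2 gave 7 (22.6% against 12.5%). In A549 5 of 32 were called (15.6% against 7.04% of all genes), 4 higher in siYAP (12.5% against 2.52%) and 1 lower (3.12% against 4.52%). ANKRD1 (1.31 ± 0.11, adjusted p = 1.91e-10), TPM1 (0.19 ± 0.04, adjusted p = 0.00195), MYLK (0.19 ± 0.06, adjusted p = 0.0436) and ANLN (0.15 ± 0.05, adjusted p = 0.044) were higher in siYAP, that is, lower in siTAZ. MYL9 was lower in siYAP (-0.92 ± 0.28, adjusted p = 0.0403). The ANKRD1 difference was called in each leave-one-out fit. That of TPM1 was lost without siYAP 2 or siTAZ 3 (adjusted p up to 0.0743, log2 change 0.16 to 0.21), that of MYLK without any 1 of siYAP 2, siYAP 3, siTAZ 2 and siTAZ 3 (adjusted p up to 0.542, log2 change 0.10 to 0.26), that of ANLN without any 1 of siYAP 1, siYAP 2, siYAP 3, siTAZ 1 and siTAZ 2 (adjusted p up to 0.54, log2 change 0.09 to 0.17) and that of MYL9 without any 1 of siYAP 1, siYAP 2, siYAP 3, siTAZ 1, siTAZ 2 and siTAZ 3 (adjusted p up to 0.454, log2 change -1.10 to -0.72). Without the block 0 members and 2 of 16008 genes were called in edgeR, with 558 genes at an unadjusted p below 0.05. DESeq2 with the block called 2 members (6.25% against 2.55% of all genes). Without the libraries numbered 3, 4 were called (12.5% against 4.33% of all genes), of which ANKRD1, TPM1 and ANLN were among the 5.

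Whether an effect differed between the lines was tested as an interaction over all 18 libraries, for 32 members. For siYAP 1 member was called (3.12% against 2.26% of all genes, or 0.955% in the same direction). The FHOD1 change lay higher in H1299 than in A549, by 0.71 ± 0.11, adjusted p = 0.00317. This difference was called in each of the 12 leave-one-out fits and without a block. In A549 alone the siYAP change of FHOD1 was -0.06 and not called. ANLN (-0.86 ± 0.24, adjusted p = 0.0601) and DIAPH3 (-0.75 ± 0.20, adjusted p = 0.0586) lay just above the threshold. They were called with a block in both lines, which called 4 members (12.5% against 10.8% of all genes). They were also called without H1299 siControl 2 or siYAP 2, which gave 3 and 4 members. Those are 9.38% and 12.5%, against 5.67% and 8.56% of all genes.

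For siTAZ 4 members were called (12.5% against 5.96% of all genes), 3 higher in H1299 (9.38% against 2.73%) and 1 lower (3.12% against 3.24%). The log2 changes of ACTA2 (0.83 ± 0.21, adjusted p = 0.026), TPM1 (0.36 ± 0.09, adjusted p = 0.0289) and LMOD1 (2.28 ± 0.62, adjusted p = 0.0374) lay higher in H1299 than in A549. For TPM1 this was a fall in A549 (-0.32) beside a change of 0.05 in H1299 that was not called. ANLN (-0.89 ± 0.24, adjusted p = 0.0344) fell more in H1299. The LMOD1 value rests on the few H1299 reads given above. LMOD1 failed the filter on low counts in H1299 alone and entered the joint fit through its A549 reads. It is counted among the 4 and among the 3 higher. None of the 4 held without any block, where 60 of 15816 genes were called in edgeR and 2376 had an unadjusted p below 0.05, and 10 members were called with a block in both lines (31.2% against 17.7% of all genes). The ACTA2 call was lost without any 1 of H1299 siControl 1, H1299 siControl 3, H1299 siTAZ 1, A549 siControl 1, A549 siControl 3, A549 siTAZ 1, A549 siTAZ 2 and A549 siTAZ 3 (adjusted p up to 0.0771, log2 change 0.71 to 1.02). The TPM1 call was lost without each of 10 of the 12 libraries, all but H1299 siControl 2 and siTAZ 2 (adjusted p up to 0.1). That of ANLN was lost without each of 9, all but H1299 siControl 2, siTAZ 1 and siTAZ 2 (up to 0.104). That of LMOD1 was lost without each of 9, all but H1299 siControl 3, siTAZ 1 and siTAZ 2 (up to 0.123). ANKRD1, with its few H1299 reads, gave an interaction of -0.46 ± 0.75, adjusted p = 0.762.

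The control libraries of the lines were compared on a common scale, in CPM of 1 joint TMM scaling. Of 32 members 25 were called (78.1%, against 74.7% of all genes), 13 higher in H1299 and 12 lower, or 40.6% and 37.5% against 37.7% and 37%. The 25 and the 12 lower include ANKRD1 and LMOD1, which passed the filter of the joint fit only through A549, where they are high. Per kb of exon, the most abundant members in both lines were ACTG1 (1134 CPM per kb in H1299 and 1265 in A549) and ACTB (722 and 689). Neither actin was called between the lines (-0.16 ± 0.15 and 0.07 ± 0.10). PFN1 followed in both lines, at 251 and 431 CPM per kb, lower in H1299 (log2 difference -0.78 ± 0.11, adjusted p = 4.08e-06).

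FLNC differed most. The H1299 controls held 463, 411 and 491 CPM and the A549 controls 1.64, 0.938 and 3.48 CPM, a difference of 8.06 ± 0.29, adjusted p = 4.24e-14. It was followed on the H1299 side by MYL9 (19.5 ± 4.03 CPM against 0.992 ± 0.723 CPM, mean ± SD, n = 3) and by DIAPH3, ANLN and CNN2 (log2 differences of 2.35 ± 0.32, 2.32 ± 0.37 and 2.09 ± 0.11). SRF stood at 123 ± 8.67 CPM in H1299 and 38.6 ± 1.11 CPM in A549 (1.67 ± 0.08, adjusted p = 3.23e-12). Its coactivators went the other way, MKL1 by -1.26 ± 0.14, adjusted p = 1.71e-07 and MKL2 by -1.32 ± 0.10, adjusted p = 1.20e-09.

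On the A549 side CALD1 stood at 266 ± 14.6 CPM there against 19.9 ± 4.89 CPM in H1299 (-3.74 ± 0.18), MYLK at 63.1 ± 8.57 CPM against 4.86 ± 0.170 CPM (-3.70 ± 0.18) and ACTA2 at 17.1 ± 3.17 CPM against 1.39 ± 0.0818 CPM (-3.61 ± 0.20). ANKRD1 (-5.77 ± 0.74) and LMOD1 (-4.36 ± 0.45) had few H1299 reads, and their folds depend on the prior count. Both failed the filter in H1299 alone and entered the joint fit through their A549 reads. TAGLN2 (-1.73 ± 0.14) and TPM1 (-1.59 ± 0.19) were also higher in A549. TAGLN was higher in A549 (-1.14 ± 0.34, adjusted p = 0.00595), lost without A549 siControl 3 (log2 -0.68, adjusted p = 0.0564). MYL6 was too (-0.49 ± 0.17, adjusted p = 0.0164), lost without H1299 siControl 3 (log2 -0.42, adjusted p = 0.0675) or A549 siControl 3 (log2 -0.30, adjusted p = 0.122). FLNA, TPM2, TPM4, MYH10 and CFL1 were not called, beside both actins. With libraries scaled by total reads, the median over all genes moved from 0.02 to 0.24, and ACTB, CFL1 and TPM4 were called higher in H1299 while MYL6 lost its call.

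**Figure D5:**
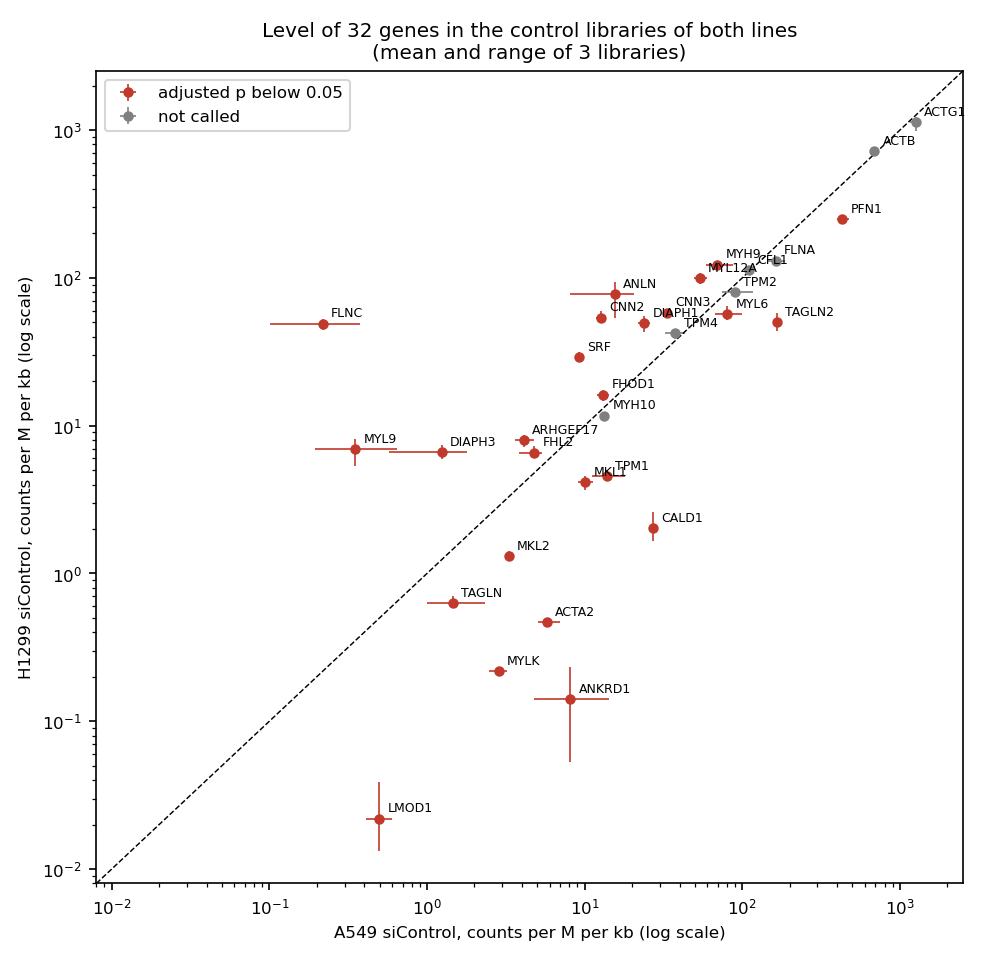
Mean level of 32 genes in the 3 siControl libraries of A549 (x axis) and H1299 (y axis), in CPM per kb of exon on log scales, with bars from the lowest to the highest library. The dashed line marks equal levels. FLNC lies above the line (49.0 against 0.218), ANKRD1, MYLK, CALD1 and ACTA2 lie below it, and ACTB and ACTG1 lie near it at the top right.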

How the data were processed

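Poly(A) RNA of 18 libraries was sequenced, and the authors deposited 2 tables, 1 for each line, with read counts per gene and log2 fold changes. Per the submitters' processing notes, cutadapt, STAR 2.4.2a, DESeq2 and the GRCh38 build were used; how reads were assigned to genes, and whether strand was used, is not given in the sources used here. Only the deposited counts were tested. The authors' deposited log2 values served only to find the design: a DESeq2 refit matched 100% of them within 0.001 in H1299 with no batch term, and 99.9902% in A549 with a term for replicate number (8.88% without). The other 36 per-sample columns were not used.

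Genes were filtered by filterByExpr, scaled by TMM and tested with edgeR 4.0.16 (limma 3.58.1, R 4.3.3) by quasi-likelihood F tests, each line on its own, with the replicate number as a block in A549 only. Differences between lines came from joint fits of both lines, with the block in A549 only for the siRNA effects and no block for the siControl levels. Adjustment ran over all genes tested, and the threshold was 0.05. The fits of siYAP against siControl in each line were tried on simulated counts that held no replicate-number effect. Those counts could not check the need for the block in A549, nor the tests between lines. DESeq2 1.42.0, other scalings, no filter, the block and leaving out each library were alternatives. A fit without the A549 libraries numbered 3 was added after seeing the data. Libraries sharing a number deviated together within each line (correlations of 0.108 to 0.383 in H1299 and 0.384 to 0.729 in A549). Libraries of different numbers gave -0.324 to 0.160 in H1299, where the ranges overlap, and -0.550 to 0.279 in A549. The numbers were taken to pair libraries, less clearly in H1299. The labels do not say what a number marks. H1299 was nevertheless fitted without the block, as in the authors' deposited fold changes for that line, and its blocked counts stand beside the results. Values per library were given for members called in a knockdown contrast, for LMOD1 and for SRF, MKL1 and MKL2, and ranges for the rest. From each other gene list at most 2 called genes per contrast were named; 1 list is not reported here. The members and lists were chosen with earlier results of these data known. Gene positions are those of GENCODE 29 (GRCh38), and sequences those of RefSeq (GRCh38.p14).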

Additional observations from a re-analysis of the deposited data

Results flagged for a closer look

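For 5 genes the interaction test found an siRNA effect that differed between H1299 and A549, given as the log2 change in H1299 minus that in A549 (edgeR's quasi-likelihood F test, adjusted over all genes). The siYAP effect on FHOD1 differed by 0.71 (adjusted p = 0.00317). The siTAZ effect differed by 2.28 for LMOD1 (adjusted p = 0.0374), -0.89 for ANLN (adjusted p = 0.0344), 0.83 for ACTA2 (adjusted p = 0.026) and 0.36 for TPM1 (adjusted p = 0.0289). Line, culture medium and table cannot be told apart in these differences. The FHOD1 difference was called without any block and in each of 12 leave-one-out fits. The other 4 were not called without a block, and were lost in 8 (ACTA2), 9 (ANLN and LMOD1) and 10 (TPM1) of 12 leave-one-out fits. LMOD1 was also not called in DESeq2, and rests on 1 to 13 reads in each H1299 library. It failed the filter on low counts in H1299 alone and was tested here through its A549 reads.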

How the results depend on the processing

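The counts of members called moved with the following settings. With the replicate number as a block in H1299, 14 were called under siYAP (6 without), 14 under siTAZ (7) and 11 between the siRNAs (2). Without the block in A549, each of the 3 contrasts called 0. With a block in both lines the siYAP effect differed for 4 members and the siTAZ effect for 10, and without any block the siTAZ effect for 0. The block in both lines was not run for the siControl levels, which were tested with no block. DESeq2 called 7 members between the siRNAs in H1299, 4 under siYAP and 2 between the siRNAs in A549, and 2 for the siYAP effect. Scaling by total reads called 4 between the siRNAs in H1299. Leaving out 1 library gave 4 to 9 for H1299 siTAZ, 2 to 7 for H1299 siYAP against siTAZ, 3 to 10 for A549 siYAP, 7 to 15 for A549 siTAZ, 1 to 3 for A549 siYAP against siTAZ, 1 to 4 for the siYAP effect and 0 to 8 for the siTAZ effect. All other counts stayed within 1.5 times, and no member changed sign past the threshold.

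Over all genes, DESeq2 called 363 in place of 909 under A549 siYAP (82 higher and 281 lower, in place of 401 and 508), 1139 in place of 2134 under A549 siTAZ, 518 in place of 1127 between the siRNAs in A549 and 746 in place of 358 for the siYAP effect. The block called 4461 in place of 2625, 5606 in place of 3680 and 3399 in place of 1846 in the 3 H1299 contrasts. Scaling by total reads moved the higher and lower genes from 1244 and 1381 to 1487 and 1087 under H1299 siYAP, and from 1717 and 1963 to 2330 and 1365 under H1299 siTAZ. It moved them from 883 and 963 to 687 and 1088 for H1299 siYAP against siTAZ, from 5958 and 5852 to 7095 and 4734 for the siControl level, from 151 and 207 to 201 and 149 for the siYAP effect and from 431 and 512 to 657 and 264 for the siTAZ effect. Among the members that scaling gave 3 higher and 5 lower, in place of 1 and 6, under H1299 siTAZ. A block in both lines called 1712 genes for the siYAP effect and 2797 for the siTAZ effect, in place of 358 and 943, and no block 13 and 60. Leaving out 1 library gave 1124 to 3066 for H1299 siYAP (2625 with all), 1715 to 4301 for H1299 siTAZ (3680 with all), 856 to 2006 for H1299 siYAP against siTAZ (1846 with all), 164 to 877 for A549 siYAP (909 with all), 1057 to 1923 for A549 siTAZ (2134 with all), 308 to 941 for A549 siYAP against siTAZ (1127 with all), 46 to 1373 for the siYAP effect (358 with all) and 222 to 2025 for the siTAZ effect (943 with all). The causes were not tested.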
